A study of Mus musculus with 7 samples.

Results

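The genes described here encode trans-synaptic adhesion and organiser proteins, the cell-surface molecules that reach across the synaptic cleft and bind one another. They were taken by symbol as the protein-coding genes of 12 families, and 43 genes of 55384 listed, 21963 of them protein-coding, are described: the neurexins Nrxn2 and Nrxn3, the neuroligins Nlgn1 to Nlgn3, Lrrtm1 to Lrrtm4, Slitrk1 to Slitrk6, Flrt1 to Flrt3, the latrophilins Adgrl1 to Adgrl3, the SALM genes Lrfn1 to Lrfn5, the LAR-type phosphatases Ptprd, Ptprf and Ptprs, the SynCAM genes Cadm1 to Cadm4, the teneurins Tenm1 to Tenm4, the netrin-G ligand genes Lrrc4, Lrrc4b and Lrrc4c, and the calsyntenins Clstn1 to Clstn3. Their RNA was measured on ribosomes of kisspeptin cells in the AVPV (anteroventral periventricular nucleus), a small nucleus of the preoptic area, in female mice on a C57BL/6 background. All mice were Kiss1Cre+/Rpl22HA+/+, so Cre under Kiss1 control put an HA tag on ribosomes, and these were pulled down from punches of the nucleus. The 3 E2 libraries came from estradiol-treated females. The 4 GDX libraries are from mice without ovaries that received no estradiol. The labels give neither the age of the mice nor the dose and length of the treatment, and they do not say whether the E2 females were also ovariectomized. Each library is a pool of 4 brains, so the spread between libraries is a spread between pools. Cre marks a cell for good once it has acted, so cells that expressed Kiss1 earlier are included.

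As background, neurexins and LAR-type phosphatases sit mainly on the axon side of a synapse and act as hubs for many partners. Neuroligins, LRRTMs, SLITRKs, SALMs, netrin-G ligands and calsyntenins act mainly on the receiving side, where they help to gather receptors and scaffold proteins. FLRTs, latrophilins and teneurins bind one another in a shared complex, and SynCAMs bind other SynCAMs across the cleft. Several of these genes are known for setting the strength and type of excitatory or inhibitory synapses, and AVPV kisspeptin neurons are the preoptic cells through which high estradiol drives the surge of gonadotropin-releasing hormone.

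Library totals were 30929883 to 33438199 expected counts in E2 and 29207544 to 36213127 in GDX. Markers of the tagged cells (Kiss1, Esr1, Pgr, Th, Gad1, Gad2 and Slc32a1) were all present, with summed levels of 3294 to 3446 CPM (counts scaled per library with TMM factors) in E2 and 2239 to 2564 CPM in GDX. By edgeR 4 of the 7 were called higher and 0 lower, against 2.55% and 1.33% of all genes tested. The 4 were Kiss1 (log2 fold change 2.64 ± 0.36), Pgr (2.05 ± 0.12), Th (0.89 ± 0.11) and Gad2 (0.43 ± 0.07). Gad1 (0.09 ± 0.06) and Slc32a1 (0.07 ± 0.08) were not called, so the summed level does not show a rise of all 7. Esr1 had a log2 fold change of -0.39 ± 0.11 and was not called (edgeR adjusted p = 0.09). DESeq2 called 4 of the 7 higher and 1 lower, against 3.98% and 4.28% of all genes. Summed pan-neuronal markers were 4942 to 5071 CPM in E2 and 4577 to 4839 CPM in GDX, without overlap. Of these 8 markers edgeR called 1 higher, Elavl4 (log2 fold change 0.51 ± 0.08, adjusted p = 0.00392), and 7 were not called. Among these 7, Stmn2 (-0.13), Syt1 (-0.0066) and Tubb3 (-0.0043) were below 0. The others of the 7 ran from 0.05 for Snap25 to 0.23 for Map2, so the summed levels do not show a rise shared by all 8. The part of general neuronal RNA in the results was not tested. Markers of other cells were present as well. None of the 8 astrocyte, 10 oligodendrocyte, 8 microglial, 8 endothelial and mural or 6 ependymal markers was at 0 in all libraries. The ependymal and tanycyte marker Rax did not exceed 0.308 CPM and had too few counts to be tested, so 5 of the 6 were tested. Summed astrocyte markers were 1197 to 1398 CPM in E2 and 1504 to 3555 CPM in GDX, endothelial and mural markers 140.8 to 219 CPM in E2 and 240.5 to 771 CPM in GDX, and oligodendrocyte markers 2699 to 3190 CPM in E2 and 2880 to 5917 CPM in GDX. Microglial markers were 84.1 to 112 CPM in E2 and 79.1 to 108 CPM in GDX. Ependymal and tanycyte markers were 24.8 to 46.7 CPM in E2 and 44.3 to 89.4 CPM in GDX. Of the non-neuronal markers tested, edgeR and limma-voom called 0, beside 3.88% and 6.07% of all genes. DESeq2 called 3 astrocyte, 1 endothelial or mural and 1 ependymal marker lower in E2, beside 4.28% of all genes. Lower at an unadjusted p under 0.05 were 4 astrocyte, 1 oligodendrocyte, 5 endothelial or mural and 5 ependymal markers. Of all genes tested, 16.8% had such a p in either direction, and the oligodendrocyte count was not above that share. The mean log2 CPM of the astrocyte, oligodendrocyte, microglial and endothelial markers, called the non-neuronal score here, was 5.14, 5.32 and 5.42 in E2 replicates 1, 2 and 3, against 6.15, 5.61, 5.41 and 6.03 in GDX replicates 1 to 4 (two-sided exact permutation test, p = 0.0857, smallest possible 0.0286). In pooled punches, fewer cells of a type and less RNA per cell cannot be told apart.

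The start regions of the genes on which the results turn are shown to give the sequence around each transcript start. RefSeq windows (GRCm38.p6) of 250 bases before to 50 bases after a start were matched by symbol for 34 of the 43 genes, and those of the called genes with a window are printed 5′ to 3′ on the gene's strand. For Lrrtm4, which has more than one window, the one at the start of the annotated gene is given. Capitals mark matches to the motifs searched.
Slitrk6, chr14:110755100-110755399, minus strand: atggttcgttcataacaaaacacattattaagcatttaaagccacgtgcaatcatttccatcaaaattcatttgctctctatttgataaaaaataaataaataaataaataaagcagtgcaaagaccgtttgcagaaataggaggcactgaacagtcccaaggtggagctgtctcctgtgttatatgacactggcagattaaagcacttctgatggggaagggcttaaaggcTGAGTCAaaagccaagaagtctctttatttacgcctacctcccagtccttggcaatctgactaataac
Slitrk1, chr14:108914190-108914489, minus strand: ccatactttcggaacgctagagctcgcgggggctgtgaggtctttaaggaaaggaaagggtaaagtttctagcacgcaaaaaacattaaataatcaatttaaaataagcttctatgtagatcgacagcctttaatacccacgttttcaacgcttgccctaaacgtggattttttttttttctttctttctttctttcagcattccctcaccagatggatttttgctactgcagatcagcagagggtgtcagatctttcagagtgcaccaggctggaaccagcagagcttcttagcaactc
Flrt3, chr2:140671427-140671726, minus strand: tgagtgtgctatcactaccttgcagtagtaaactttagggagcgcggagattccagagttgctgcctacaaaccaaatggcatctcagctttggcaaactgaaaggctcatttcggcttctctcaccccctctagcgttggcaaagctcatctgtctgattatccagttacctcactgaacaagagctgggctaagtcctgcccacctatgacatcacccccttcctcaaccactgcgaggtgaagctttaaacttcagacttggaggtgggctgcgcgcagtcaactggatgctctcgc
Lrrtm1, chr6:77242227-77242526, plus strand: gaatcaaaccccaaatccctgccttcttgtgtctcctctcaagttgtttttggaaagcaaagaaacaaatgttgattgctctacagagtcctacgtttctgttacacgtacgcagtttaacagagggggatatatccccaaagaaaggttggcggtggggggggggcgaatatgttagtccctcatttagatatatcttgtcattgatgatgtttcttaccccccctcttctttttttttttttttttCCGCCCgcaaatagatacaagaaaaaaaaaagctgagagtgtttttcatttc
Lrrtm3, chr10:64090206-64090505, minus strand: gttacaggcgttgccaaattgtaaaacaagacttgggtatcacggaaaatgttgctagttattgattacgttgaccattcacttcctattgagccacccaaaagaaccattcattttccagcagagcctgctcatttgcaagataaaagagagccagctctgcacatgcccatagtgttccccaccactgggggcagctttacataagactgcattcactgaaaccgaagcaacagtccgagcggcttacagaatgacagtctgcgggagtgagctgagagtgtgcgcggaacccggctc
Lrrtm4, chr6:80018627-80018926, plus strand: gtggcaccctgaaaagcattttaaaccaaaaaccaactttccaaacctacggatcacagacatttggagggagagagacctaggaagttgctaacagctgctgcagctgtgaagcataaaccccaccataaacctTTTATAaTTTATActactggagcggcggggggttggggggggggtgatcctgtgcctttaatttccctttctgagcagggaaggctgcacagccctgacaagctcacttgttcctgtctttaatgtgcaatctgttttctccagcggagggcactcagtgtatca
The motifs, searched on both strands, were the full estrogen response element GGTCANNNTGACC (held by 0.07% of all 32851 windows), its core hexamer AGGTCA, which can lie within a full element (16.3%), the cyclic AMP response element TGACGTCA (1.79%), the AP-1 site TGANTCA (7.81%), the TATA box TATAAA (13.6%) and the GC box GGGCGG (35.7%). Among these 6 windows, Slitrk6 holds an AP-1 match at position -18 from the start, Lrrtm1 a GC box match at -2 and Lrrtm4 a pair of TATA box matches at -115 and -108. The windows of Slitrk1, Flrt3 and Lrrtm3 hold no match. Of the 34 genes, 0 hold the full estrogen response element, 3 hold its core hexamer (Lrfn4, Ptprs and Tenm1), 5 hold the cyclic AMP response element (Clstn2, Clstn3, Ptprs, Slitrk2 and Tenm3), 4 an AP-1 site, 4 a TATA box and 15 a GC box. The GC content of the printed windows runs from 38.3% in Slitrk6 to 51.3% in Flrt3, against a median of 52.7% over all windows and 58.1% over the windows of the 34 genes. These counts are of genes with a match in any of their windows, and several genes have further windows. The percentages above are per window, so counts and percentages are not in like units. A match is a description of letters, and the absence of one concerns the windows searched alone. Nrxn2, Nlgn3, Lrrtm2, Slitrk4, Flrt1, Lrfn1, Lrfn2, Ptprd and Cadm1 were not among the windows.

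In E2, 4 of the 43 genes rose and 4 fell. Slitrk6, Slitrk1, Cadm1 and Lrrtm2 rose, and Flrt3, Lrrtm1, Lrrtm3 and Lrrtm4 fell. The largest rise was that of Slitrk6, 4.33-fold, and the largest fall that of Flrt3, to a level 2.49-fold lower in E2. All 43 genes passed the filter on low counts. Calls were made at an adjusted p under 0.05 by edgeR's quasi-likelihood test with Benjamini-Hochberg adjustment over all 18282 genes tested, and log2 fold changes are E2 over GDX with their standard error. Over all genes tested, 3.88% were called, 2.55% as higher and 1.33% as lower in E2, that is 467 and 243 genes, and with library sizes alone as the scaling 385 and 352. Among the 10641 genes averaging 10 CPM or more, as all 43 did, 5.50% were called. Of the 43 genes, 18.6% were called. DESeq2 called 4 of them higher and 5 lower, with 8.26% of all genes called (3.98% higher, 4.28% lower). Limma-voom called 6 higher and 4 lower, with 6.07% of all genes called (3.88% higher, 2.18% lower). The fit with the non-neuronal score as a covariate called 2 higher and 3 lower, with 1.85% of all genes called (1.28% higher, 0.569% lower). At an adjusted p under 0.01 in edgeR there were 3 higher and 3 lower, with 1.97% of all genes called (1.50% higher, 0.465% lower). With the replicate number as a block there were 4 higher and 3 lower, with 3.35% of all genes called (2.30% higher, 1.04% lower).

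Calls fell in 4 of the 12 families, the LRRTMs, SLITRKs, FLRTs and SynCAMs, which hold 17 of the genes. In the other 8 families edgeR called 0 of 26 genes, beside 3.88% of all genes tested. That count is near the share of all genes and is no result about these families. Of the 26, 3 higher and 5 lower ones had an unadjusted p under 0.05, beside 16.8% of all genes tested in either direction. There DESeq2 called 1 gene, Lrrc4c, beside 8.26% of all genes, and limma-voom 1, Nrxn3, beside 6.07%. The median log2 fold change over the 43 genes was -0.10, against 0.00 over all genes tested. It was -0.02 with the non-neuronal covariate and -0.05 without GDX replicates 1 and 4. Of the 43 values, 28 were below 0 and 15 above, while 50.75% of all genes tested were above 0. Levels of the groups did not overlap for 15 of the 43 genes, against 16.5% of all genes tested. Summed over the 43 genes, the level was 7064 to 7609 CPM in the E2 libraries and 6933 to 7289 CPM in the GDX libraries, so the total overlapped between the groups.

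**Figure D1:**
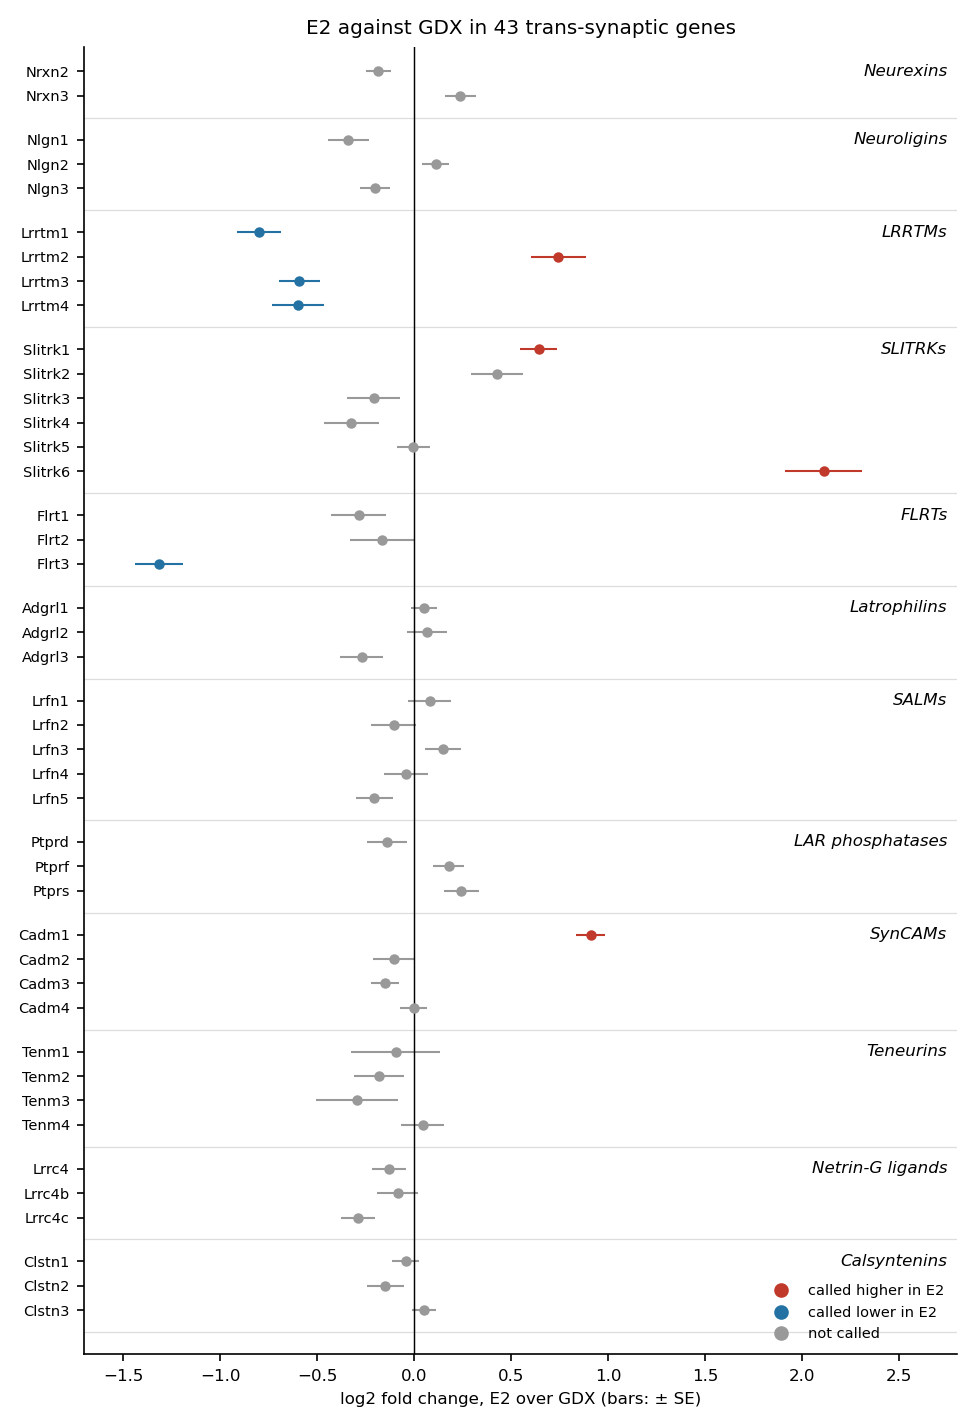
Log2 fold change of E2 over GDX on the x axis, with its standard error as a bar, for the 43 genes in rows grouped by family. Coloured points were called at an adjusted p under 0.05, and they run from -1.32 for Flrt3 to 2.11 for Slitrk6, while the uncalled genes (grey) lie between -0.34 and 0.43.

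All 4 LRRTM genes were called, 1 higher and 3 lower. LRRTM proteins are leucine-rich repeat proteins on the receiving side of mainly excitatory synapses; LRRTM1 and LRRTM2 bind neurexins, and LRRTM4 binds heparan sulfate proteoglycans. Lrrtm2 (chr18:35209003-35215024, GRCm38) had 89.4, 78.5 and 64.7 CPM in E2 replicates 1 to 3, against 36.7, 48.9, 45.3 and 54.2 CPM in GDX replicates 1 to 4. Each E2 library lay above each GDX library, and Lrrtm2 rose 1.68-fold (log2 fold change 0.74 ± 0.14, adjusted p = 0.0122). Lrrtm1 (chr6:77242689-77257791) had 25.7, 27.9 and 28.7 CPM in E2, against 44.3, 53.4, 52.1 and 41.1 CPM in GDX. It was 1.74-fold lower in E2 without overlap (-0.80 ± 0.11, adjusted p = 0.00142). Lrrtm3 (chr10:63928472-64090277) fell to 30.0, 31.6 and 27.8 CPM in E2, against 39.7, 42.0, 49.6 and 48.2 CPM in GDX (-0.59 ± 0.11, adjusted p = 0.00799). Lrrtm4 (chr6:80018877-80810143), at the lowest level of the family per exon length, fell to 19.0, 17.8 and 16.6 CPM in E2, against 25.3, 22.3, 28.8 and 31.4 CPM in GDX (-0.60 ± 0.13, adjusted p = 0.0264), again without overlap.

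Lrrtm1 and Lrrtm2 differed in rank between the groups. Levels of different genes are compared here per kb of merged annotated exon, which need not be the length of the transcripts expressed. Per kb, the mean level of Lrrtm2 was 12.9 CPM per kb in E2 and 7.68 in GDX, and that of Lrrtm1 was 9.04 in E2 and 15.7 in GDX. Of the summed LRRTM level per kb, Lrrtm2 made up 36.5% to 44.4% in the E2 libraries and 17.8% to 23.1% in the GDX libraries. Lrrtm1 made up 25.3% to 32.1% in the E2 libraries and 34.7% to 44.9% in the GDX libraries. The ratio of Lrrtm2 to Lrrtm1 per kb, taken within a library and so independent of scaling between libraries, was 1.75, 1.42 and 1.14 in E2, against 0.417, 0.462, 0.438 and 0.665 in GDX. Per kb, Lrrtm2 was thus above Lrrtm1 in each E2 library and below it in each GDX library. By CPM without this division, Lrrtm2 was also above Lrrtm1 in GDX replicate 4, at 54.2 against 41.1 CPM. The summed LRRTM level was 164, 156 and 138 CPM in E2, against 146, 167, 176 and 175 CPM in GDX, and it overlapped between the groups.

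The direction held for all 4 LRRTM genes under the alternatives run, but not all calls did. Lrrtm2 lost its call when E2 replicate 1 was left out (a value of 0.63 with an adjusted p of 0.0688), without E2 replicate 2 (0.74, 0.0598) and with the non-neuronal score as a covariate (0.59, 0.300). Lrrtm3 lost its call without E2 replicate 3 (-0.55, 0.0534). Lrrtm4 lost its call without E2 replicate 1, 2 or 3 (adjusted p = 0.0803, 0.102 and 0.122), without GDX replicate 1 (0.0564), without GDX replicates 1 and 4 together (0.0548), with the covariate (0.213) and with the replicate number as a block (0.0842). Lrrtm1 was called in all of these, with adjusted p values up to 0.0194. Lrrtm1, Lrrtm2 and Lrrtm3 each lie within an alpha-catenin gene on the opposite strand, and the libraries carry no strand. Ctnna2, which surrounds Lrrtm1, was 212 ± 7.72 CPM in E2 and 154 ± 9.37 CPM in GDX (SD, n = 3 and 4; log2 fold change 0.46 ± 0.07, adjusted p = 0.00307), the opposite direction to Lrrtm1. Ctnna1, around Lrrtm2, was 83.5 ± 5.09 CPM in E2 and 87.8 ± 26.6 CPM in GDX (-0.07 ± 0.21), and the exons of both genes share 95 bp. Ctnna3, around Lrrtm3, was 0.635 CPM in E2 and 1.59 CPM in GDX. Lrrtm4 shares 1543 bp, or 25.1%, of its exons with the antisense gene Gm4409, which is listed at 0 in all 7 libraries, and without strand reads of the shared bases cannot be assigned to one of these genes with certainty.

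Among the SLITRK genes, 2 of 6 rose and 4 were not called. SLITRKs are leucine-rich repeat proteins that bind LAR-type phosphatases across the cleft. Slitrk6 (chr14:110748580-110755149), also known for inner ear development, had 35.05, 27.2 and 22.3 CPM in E2, against 4.61, 7.35, 6.46 and 7.65 CPM in GDX. Its lowest E2 level was well above its highest GDX level, and the log2 fold change was 2.11 ± 0.20 (adjusted p = 7.62e-05). Slitrk1 (chr14:108908800-108914158), which promotes synapse formation in cultured neurons, had 129, 117 and 104 CPM in E2, against 66.6, 73.4, 77.1 and 81.9 CPM in GDX. It rose 1.56-fold (0.64 ± 0.10, adjusted p = 0.00215), a call lost with the non-neuronal covariate (0.54, 0.0854). Slitrk2 had 22.9, 19.7 and 18.2 CPM in E2, against 14.9, 14.6, 13.4 and 17.3 CPM in GDX, without overlap, and did not pass (0.43 ± 0.13, adjusted p = 0.117). It was called in 2 of 19 alternatives, and limma-voom called 3 SLITRK genes higher. Slitrk3 (-0.21 ± 0.14) and Slitrk4 (-0.32 ± 0.14) did not pass either. Slitrk5 stood at 41.5 ± 0.432 CPM in E2 and 41.6 ± 2.19 CPM in GDX, within the spread of the pools (adjusted p = 0.991).

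Slitrk1, Slitrk6 and Slitrk5 follow one another on chromosome 14, with gaps of 1834422 bp and 919948 bp, so the uncalled Slitrk5 is the nearest family member to the gene with the largest rise. Within libraries, the ratio of Slitrk6 to Slitrk5 per kb was 1.06, 0.810 and 0.662 in E2, against 0.147, 0.215, 0.195 and 0.216 in GDX. Of the summed SLITRK level per kb, Slitrk6 made up 12.6% to 15.9% in the E2 libraries and 3.51% to 5.19% in the GDX libraries. Slitrk1 was the most abundant member per kb in each library, with 46.5% to 48.8% in the E2 libraries and 40.1% to 42.1% in the GDX libraries. The summed SLITRK level was 281, 242 and 227 CPM in E2, against 175, 186, 189.9 and 207 CPM in GDX.

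**Figure D2:**
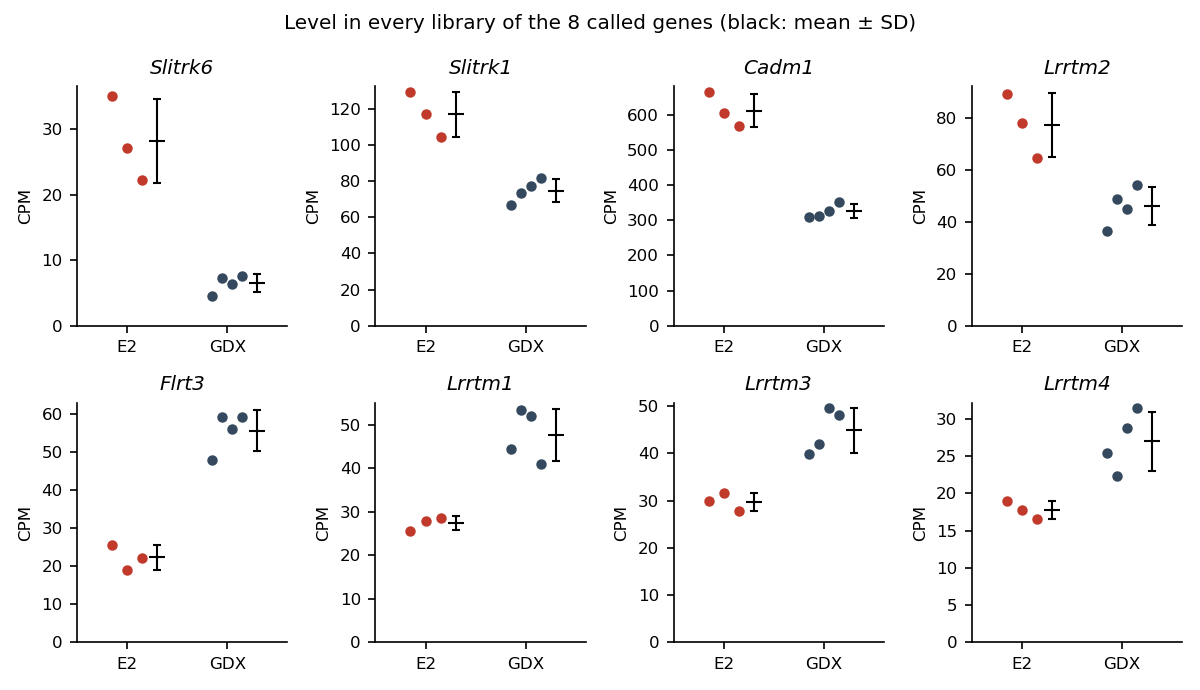
Level in CPM of each called gene in each library, E2 on the left (3 points) and GDX on the right (4 points), with mean ± SD in black. The points of the groups do not overlap in any panel, and E2 replicate 1 (the first E2 point) is the highest of the 3 E2 libraries for Slitrk6, Slitrk1, Cadm1 and Lrrtm2.

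Cadm1 (chr9:47530173-47857637), whose product SynCAM1 promotes excitatory synapses, rose to 663, 603 and 568 CPM in E2, against 308, 313, 326 and 353 CPM in GDX. The 1.88-fold rise was 0.91 ± 0.08 on the log2 scale (adjusted p = 2.7e-05), the lowest adjusted p of the 43 genes, and its call was kept in all alternatives run, with values of 0.85 to 0.96. The other SynCAM genes were not called. Cadm3 had 326, 323 and 329.8 CPM in E2, against 359, 382, 381 and 325 CPM in GDX, which overlap (-0.15 ± 0.07, adjusted p = 0.335). Cadm4, the most abundant SynCAM gene per kb, had 208, 225 and 219 CPM in E2, against 222, 221, 228 and 198 CPM in GDX (0.00 ± 0.07, adjusted p = 0.994). These also overlap, and Cadm2 was 49.6 ± 3.36 CPM in E2 and 53.3 ± 6.70 CPM in GDX. Of the summed SynCAM level per kb, Cadm1 made up 26.4% to 30.2% in the E2 libraries and 15.7% to 19.2% in the GDX libraries. It exceeded Cadm3 per kb in each E2 library, at ratios of 1.20 to 1.41, and was below it in each GDX library, at ratios of 0.570 to 0.755. Cadm3 shares 361 bp of exon with Ackr1 on the same strand, so reads there cannot be assigned to either gene with certainty.

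E2 replicate 1 had the highest level of Slitrk6, Slitrk1, Cadm1 and Lrrtm2 in the E2 group and E2 replicate 3 the lowest, while the non-neuronal score was lowest in E2 replicate 1 (5.14) and highest in E2 replicate 3 (5.42). The part of non-neuronal RNA in these rises was not tested beyond the fit with the score as a covariate, which gave log2 fold changes of 1.82 for Slitrk6, 0.54 for Slitrk1, 0.88 for Cadm1 and 0.59 for Lrrtm2. With GDX replicates 1 and 4, the libraries with the highest scores, left out together, all 4 rises and the falls of Flrt3, Lrrtm1 and Lrrtm3 were called.

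**Figure D3:**
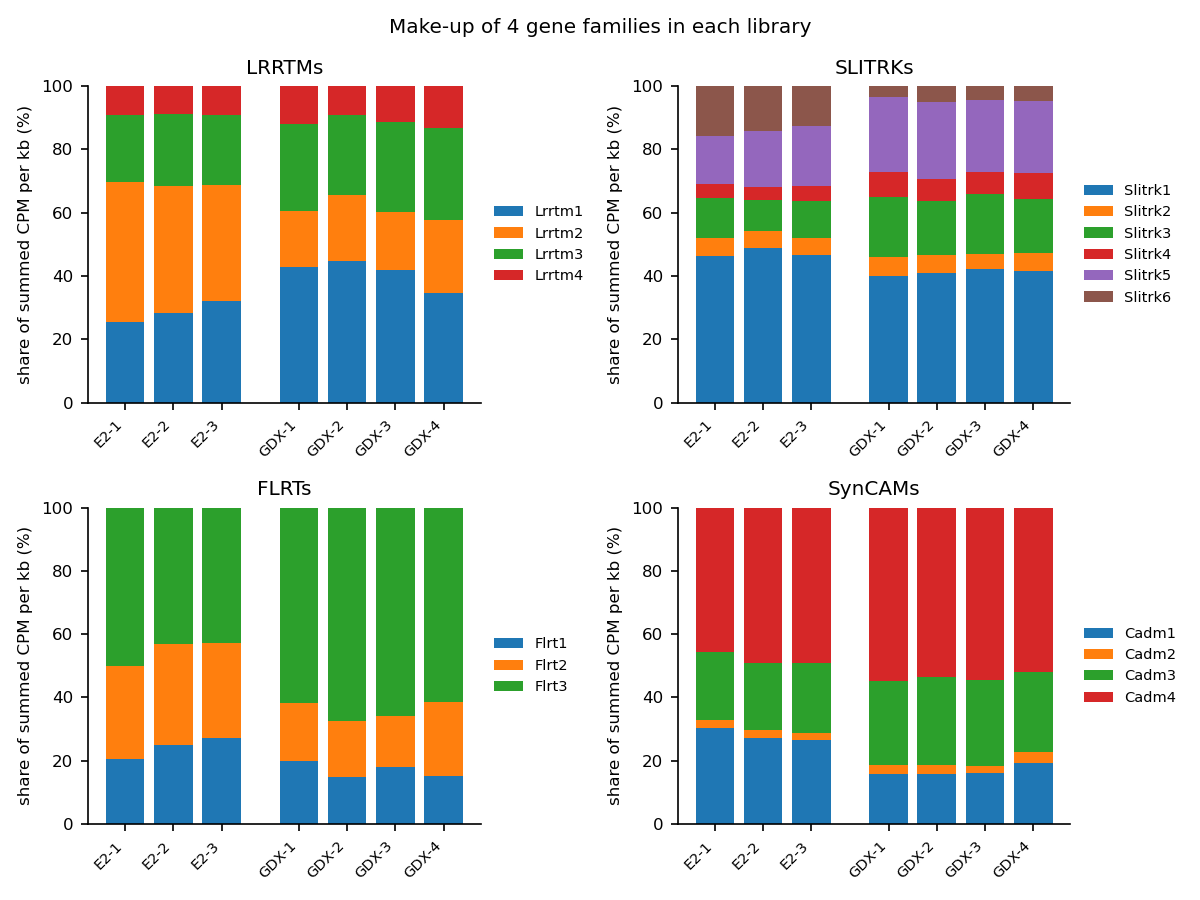
Stacked shares, in percent, of each member in the summed CPM per kb of exon of its family, for the 3 E2 libraries (left) and the 4 GDX libraries (right) of the LRRTMs, SLITRKs, FLRTs and SynCAMs. Lrrtm2 takes 36.5% to 44.4% of its family in E2 against 17.8% to 23.1% in GDX, and Flrt3 takes 42.7% to 50.2% of its family in E2 against 61.3% to 67.4% in GDX.

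FLRT proteins bind latrophilins and the guidance receptors of the UNC5 family, and latrophilins in turn bind teneurins. Flrt3 (chr2:140650914-140671469) had 25.7, 19.1 and 22.2 CPM in E2, against 47.8, 59.1, 56.0 and 59.2 CPM in GDX. The E2 libraries all lay below the GDX libraries, and Flrt3 fell with a log2 fold change of -1.32 ± 0.12 (adjusted p = 6.86e-05), called in all alternatives run (-1.45 to -1.21). Flrt3 lies within Macrod2 on the opposite strand, which was 37.2 ± 0.70 CPM in E2 and 36.7 ± 2.59 CPM in GDX. Flrt1 had 12.7, 13.4 and 17.1 CPM in E2, against 18.5, 15.7, 18.4 and 17.6 CPM in GDX, and was not called (-0.29 ± 0.14, adjusted p = 0.339). Flrt2 was 23.6 ± 1.22 CPM in E2 and 26.4 ± 6.59 CPM in GDX, where GDX replicate 4 stood at 36.1 CPM, above the range of 21.8 to 24.9 CPM in GDX replicates 1 to 3. Within libraries, Flrt3 per kb was 1.36 to 1.72 times Flrt2 in E2 and 2.603 to 4.09 times Flrt2 in GDX. The summed FLRT level was 62.2, 54.7 and 64.0 CPM in E2, against 89.2, 99.7, 96.1 and 113 CPM in GDX.

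The partners of FLRTs in this complex were not called. The latrophilin gene Adgrl1, by far the most abundant of its family per kb, had 415, 413 and 439 CPM in E2, against 401, 439, 388 and 399 CPM in GDX, with a log2 fold change of 0.05 ± 0.07 (adjusted p = 0.774). Adgrl3, the latrophilin best known to bind FLRT3, had 73.9, 67.4 and 74.9 CPM in E2, against 86.9, 86.1, 71.9 and 103 CPM in GDX (-0.27 ± 0.11, adjusted p = 0.238), and it was called without GDX replicate 3 (-0.35, 0.0495). Adgrl2 was 45.4 ± 5.10 CPM in E2 and 43.3 ± 3.35 CPM in GDX. Teneurin levels spread widely between pools. Tenm1 had 65.2, 53.7 and 67.7 CPM in E2, against 71.2, 59.6, 43.9 and 91.1 CPM in GDX, and Tenm3 48.4, 43.9 and 66.4 CPM in E2, against 67.6, 68.7, 44.2 and 78.9 CPM in GDX. The groups overlapped for both. Tenm2, the teneurin gene with the lowest p, had 48.0, 41.1 and 54.8 CPM in E2, against 56.3, 53.2, 45.1 and 63.1 CPM in GDX (-0.18 ± 0.13, adjusted p = 0.538). Tenm4, the most abundant per kb, had 143, 119.7 and 146 CPM in E2, against 146, 124, 112 and 148 CPM in GDX (0.04 ± 0.11, adjusted p = 0.898). GDX replicate 4 was the highest and GDX replicate 3 the lowest of the GDX libraries for all 4 teneurins. The non-neuronal score was 6.15, 5.61, 5.41 and 6.03 in GDX replicates 1 to 4, so the library with the highest score was not the highest for any teneurin. The part of the score in these levels was not tested beyond the covariate fit. The teneurin log2 fold changes ran from -0.29 for Tenm3 to 0.04 for Tenm4, and their median of -0.14 was 0.22 with the non-neuronal covariate, where Tenm1 was 0.45, Tenm2 0.07, Tenm3 0.14 and Tenm4 0.30, none of them called.

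Nrxn2 and Nrxn3 encode neurexins, presynaptic partners of neuroligins and LRRTMs, and neither was called. Nrxn2, the higher of the pair per kb, had 558, 550.1 and 603 CPM in E2, against 643, 672, 631 and 646 CPM in GDX. The groups did not overlap, but the difference of -0.18 ± 0.06 on the log2 scale missed the threshold (adjusted p = 0.159). Nrxn3 had 475, 401 and 437 CPM in E2, against 353, 369, 356 and 407 CPM in GDX (0.24 ± 0.08, adjusted p = 0.139). It was called by limma-voom (0.27, 0.0352) and without GDX replicate 4 (0.29, 0.0425). Of the level per kb of Nrxn2 and Nrxn3 together, Nrxn3 made up 44.3% to 48.3% in the E2 libraries and 37.5% to 40.9% in the GDX libraries. These counts pool the long and short isoforms of each gene.

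Among the neuroligins, the postsynaptic partners of neurexins, Nlgn2, which acts at inhibitory synapses, was the most abundant per kb. It had 407, 401 and 414 CPM in E2, against 364, 397, 398 and 348 CPM in GDX, without overlap (0.11 ± 0.07, adjusted p = 0.466). Nlgn1, of excitatory synapses, had 33.8, 31.4 and 36.1 CPM in E2, against 43.2, 39.6, 39.1 and 49.0 CPM in GDX, also without overlap (-0.34 ± 0.11, adjusted p = 0.116). Nlgn3 had 93.6, 92.9 and 106 CPM in E2, against 111, 107, 113 and 117 CPM in GDX (-0.20 ± 0.08, adjusted p = 0.204). None of these passed, although all 3 were without overlap. By share of the summed level per kb, Nlgn2 held 83.6% to 84.9% in the E2 libraries and 78.7% to 82.6% in the GDX libraries. Nlgn3 shares 3823 bp of exon with Gm21986 on the same strand, and with both summed its log2 fold change was -0.15 ± 0.08 (adjusted p = 0.366).

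Of the LAR-type phosphatases, which bind SLITRKs, SALMs and netrin-G ligand 3 among others, Ptprs had 513, 472 and 561 CPM in E2, against 447, 489, 419.8 and 385 CPM in GDX (0.24 ± 0.09, adjusted p = 0.186). Ptprf was 183 ± 17.5 CPM in E2 and 162 ± 6.72 CPM in GDX (0.18 ± 0.08), and Ptprd 88.1 ± 1.04 CPM in E2 and 97.1 ± 13.1 CPM in GDX (-0.14 ± 0.10). None was called. SALM genes, some of whose products bind the scaffold PSD-95 or LAR-type phosphatases, had log2 fold changes from -0.20 for Lrfn5 to 0.15 for Lrfn3. Lrfn1, the most abundant SALM gene per kb, had 63.2, 75.2 and 73.2 CPM in E2, against 63.3, 73.1, 74.7 and 55.8 CPM in GDX (0.08 ± 0.11, adjusted p = 0.8). Lrfn5 had 92.1, 77.1 and 83.6 CPM in E2, against 85.5, 105, 95.1 and 103 CPM in GDX (-0.20 ± 0.09, adjusted p = 0.306). Both genes overlapped between the groups.

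The netrin-G ligand gene Lrrc4c (NGL-1) had 48.1, 41.0 and 48.9 CPM in E2, against 55.4, 54.5, 58.4 and 56.4 CPM in GDX. The groups did not overlap. In edgeR the gene missed the threshold (-0.29 ± 0.09, adjusted p = 0.113), and in DESeq2 it passed (adjusted p = 0.0427). Lrrc4b (NGL-3), the most abundant of the family per kb, had 189, 224 and 228 CPM in E2, against 219, 263, 234 and 192 CPM in GDX (-0.08 ± 0.11, adjusted p = 0.774). Lrrc4 (NGL-2) was 40.5 ± 2.01 CPM in E2 and 44.3 ± 2.13 CPM in GDX. The calsyntenin genes Clstn1 and Clstn3 had the highest levels of all 43. Clstn1, which also acts in vesicle transport along axons, had 942, 956 and 1082 CPM in E2, against 991, 1028, 1026 and 1051 CPM in GDX (-0.04 ± 0.07, adjusted p = 0.826). Clstn3, which binds neurexins, was 921 ± 46.8 CPM in E2 and 889 ± 29.4 CPM in GDX (0.05 ± 0.06), and Clstn2 had 56.2, 56.6 and 69.2 CPM in E2, against 66.5, 67.1, 63.6 and 71.5 CPM in GDX (-0.15 ± 0.09, adjusted p = 0.487).

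Per kb of exon, mean levels over all 7 libraries ran from 217 CPM per kb for Clstn1 to 2.14 for Slitrk2. In several families 1 member held most of the level. Adgrl1 held 86.3% to 87.9% of the latrophilin level in E2 and 83.9% to 87.0% in GDX, and Lrrc4b 76.4% to 79.7% of the netrin-G ligand level in E2 and 73.8% to 79.2% in GDX. Teneurins and SALMs were more even, with no teneurin above 35.1% in E2 or 33.2% in GDX. The coefficient of variation between pools had a median over the 43 genes of 8.47% in E2 and 9.12% in GDX, and the highest values were 22.8% for Slitrk6 in E2 and 29.9% for Tenm1 in GDX. The standard error of the log2 fold change ran from 0.06 to 0.23 with a median of 0.11. Gene spans ran from 3883 bp to 2270724 bp, and 12 of the 43 genes, among them 1 of the 8 called, span over 500000 bp.

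**Figure D4:**
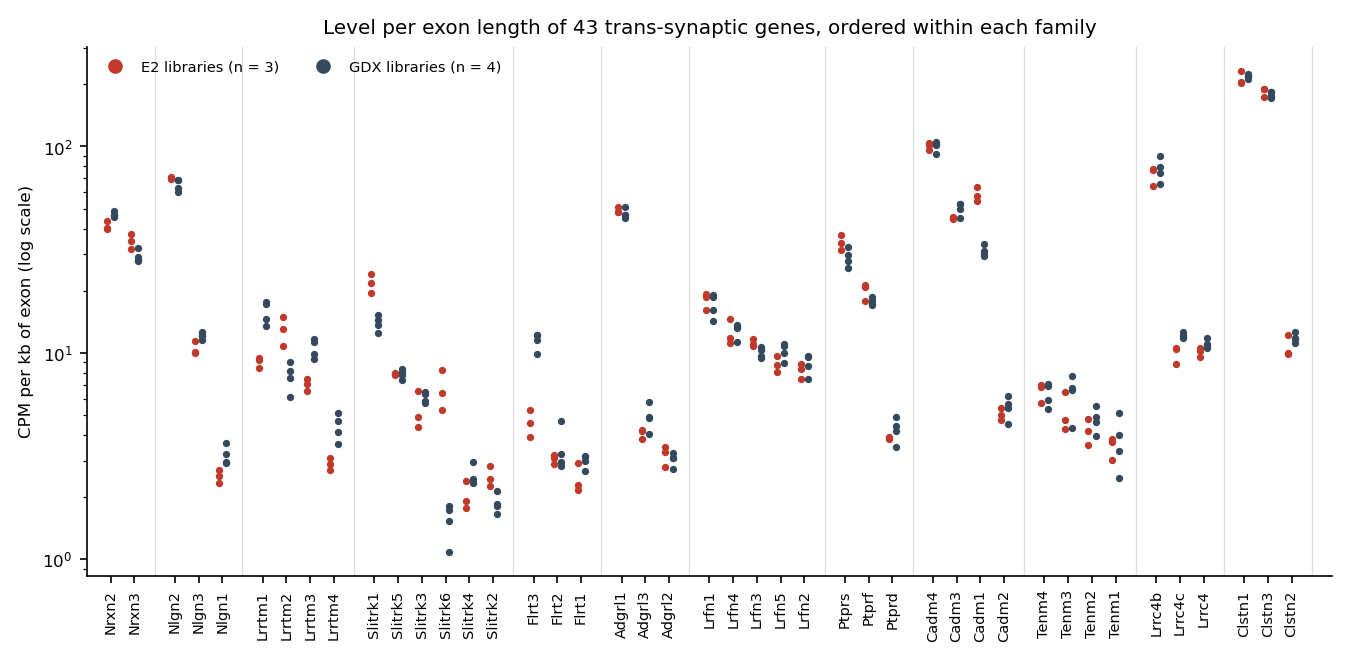
Level per kb of exon, in CPM on a log axis, of the 43 genes in families from neurexins (left) to calsyntenins (right), ordered by level within each family, with the 3 E2 libraries left of the 4 GDX libraries at each gene. Clstn1 and Clstn3 are the highest. In GDX the lowest mean is that of Slitrk6, at 1.54 CPM per kb, and in E2 that of Slitrk4, at 2.02 CPM per kb.

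Other genes of the same pathways were counted from lists drawn up by role. Earlier results of these data were known then, so the counts are no test of a list. Of genes averaging 10 CPM or more, 5.50% were called in either direction. Of 30 tested genes of secreted and membrane-bound partners, 6 rose and 0 fell by edgeR, against 2.55% of all genes tested called higher and 1.33% called lower. At an unadjusted p under 0.05 there were 9 higher and 3 lower, against 16.8% of all genes in either direction. DESeq2 called 7 higher and 1 lower, against 3.98% and 4.28% of all genes, and limma-voom 7 and 1, against 3.88% and 2.18%. C1ql2, a secreted organiser that bridges neurexins and kainate receptors, was 366 ± 50.6 CPM in E2 and 13.8 ± 2.43 CPM in GDX (log2 fold change 4.73 ± 0.15, adjusted p = 5.66e-08). Nxph3, a neurexophilin that binds alpha-neurexins, was 6.61 ± 0.222 CPM in E2 and 3.12 ± 0.476 CPM in GDX (1.08, 0.0144). Il1rap, a partner of Ptprd, was 28.1 ± 3.66 CPM in E2 and 14.6 ± 2.36 CPM in GDX (0.94, 0.00294), and Olfm1, a secreted olfactomedin that binds AMPA receptor complexes, was 357 ± 24.8 CPM in E2 and 234 ± 18.6 CPM in GDX (0.61, 0.000853). Over its tested members the list had a median of 0.18 on the log2 scale. The count of 6 was 3 without E2 replicate 1.

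Of 37 scaffold genes of both sides of the synapse, 1 was called higher and 1 lower, near the 2.55% and 1.33% of all genes tested, so these counts are no result about the list. Dlgap1, a postsynaptic scaffold gene, was 108 ± 6.46 CPM in E2 and 70.5 ± 11.4 CPM in GDX (log2 fold change 0.61 ± 0.12, adjusted p = 0.0113), and Lin7a, whose product joins CASK at neurexin tails, was 13.0 ± 1.62 CPM in E2 and 21.0 ± 3.36 CPM in GDX (-0.69, 0.0279). The Dlgap1 call was lost without E2 replicate 1 or 3, and the Lin7a call without any 1 of the E2 replicates, with the covariate and with the replicate block. Among other neuronal adhesion genes, 8 of 37 rose and 0 fell by edgeR, beside the same 2.55% and 1.33% of all genes. At an unadjusted p under 0.05 there were 10 higher and 8 lower, beside 16.8% of all genes. DESeq2 called 9 higher and 3 lower (3.98% and 4.28% of all genes) and limma-voom 9 and 1 (3.88% and 2.18%). Elfn1, a postsynaptic leucine-rich repeat gene, was 41.4 ± 5.37 CPM in E2 and 26.0 ± 1.89 CPM in GDX (log2 fold change 0.67 ± 0.11, adjusted p = 0.0047), and Cdh13, a cadherin gene, 189 ± 7.11 CPM in E2 and 120.1 ± 10.8 CPM in GDX (0.66, 0.000601). Chl1, of the L1 family, was 206 ± 22.6 CPM in E2 and 137 ± 20.8 CPM in GDX (0.59, 0.015), and Cntnap2, a neurexin-related gene of axons, 302 ± 19.4 CPM in E2 and 207 ± 15.4 CPM in GDX (0.55, 0.00154). Without E2 replicate 1 or E2 replicate 3 the count was 4, and likewise 4 with the covariate. The median log2 fold changes of these lists were 0.08 and 0.07, against 0.00 over all genes tested.

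**Figure D5:**
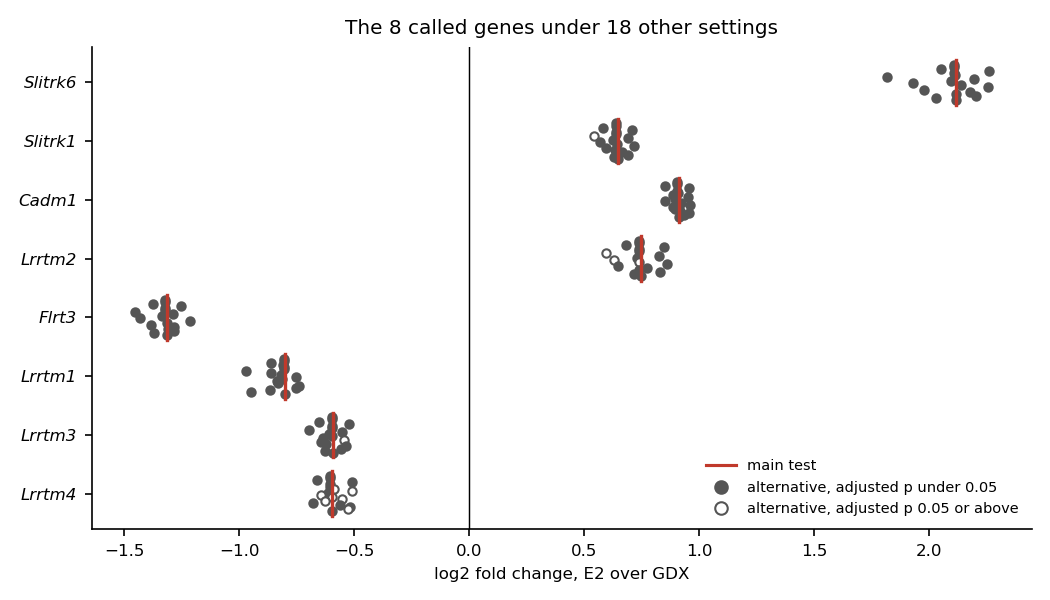
Log2 fold change of E2 over GDX (x axis) of the 8 called genes under 18 other settings, with filled points where the adjusted p was under 0.05, open points where it was not, and a red line at the value reported. No point crosses 0; Slitrk6, Cadm1, Flrt3 and Lrrtm1 have filled points throughout, and Lrrtm4 has the most open ones.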

How the data were processed

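Ribosome-bound RNA of 7 libraries was analysed, 3 from E2 and 4 from GDX females, from 1 deposited table of expected counts per gene. The expected counts were made by the authors and deposited without scaling; per the submitters' processing notes Trimmomatic 0.38, STAR 2.6.0a, RSEM 1.3.0 and build mm10 were used, with roles, order and annotation not given in the sources used here. Of the non-zero values, 33.1% were not whole. Per the labels, libraries were unstranded and made from polyadenylated RNA. Identifiers were matched to GENCODE vM21 (GRCm38), 55203 of 55384.

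Counts were rounded and tested in R 4.3.3 with edgeR 4.0.16: filterByExpr with a minimum count of 10 and a minimum total of 15, TMM factors, the robust quasi-likelihood test, adjusted p under 0.05. CPM use TMM-scaled library sizes, and CPM per kb divides by the merged exon length of the annotation. The standard error is the log2 fold change (prior count 0.125) over the square root of F. A floor of 3 counts corresponds to 0.0818 to 0.101 CPM and covers counting error only. Marker scores use a prior count of 2. Nothing says that pools of one number belong together. The fit was tested on simulated data, with changes planted in 200 of 18282 genes. At an adjusted p under 0.05 it recovered 77% of the 2-fold and 93% of the 4-fold changes. Of its calls, 9.09% were false, and smaller changes were not simulated.

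Alternatives were DESeq2 1.42.0 size factors or its Wald test, upper-quartile factors, library sizes alone, no filter, a mean of at least 5 CPM, limma-voom (limma 3.58.1), no robust option, the replicate block, the non-neuronal covariate, an adjusted p under 0.01 and left-out libraries. Summing Nlgn3 with Gm21986 was added after seeing the data. A gene of these families is not reported here and enters no count of the 43. The genes described and the lists were chosen with earlier results of these data known. All called genes are given in full, and of each family the most abundant per kb and the uncalled gene with the lowest p; of each partner list up to 4 called genes with the largest change are named. Other genes named were chosen after their values were seen.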

Additional observations from a re-analysis of the deposited data

Results flagged for a closer look

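In the 4 GDX libraries, 1 of the 43 genes had a library far from the other 3. Slitrk4 was 25.9 CPM in GDX replicate 4, against 20.5 to 21.4 CPM in the other GDX libraries. This gap exceeds Dixon's 95% critical value for 4 values, and chance flags about 1 in 20 groups. The 3 E2 libraries were too few for this test.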

How the results depend on the processing

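Over 19 alternatives each, or 20 for Nlgn3, the 8 called genes kept their direction, and the calls of Slitrk6, Cadm1, Flrt3 and Lrrtm1 held in all. An adjusted p under 0.01 left 3 higher and 3 lower of the 43 genes. With the non-neuronal covariate 2 genes were higher. With 1 library left out, 3 to 6 genes were higher and 2 to 5 lower, with 2 lower without E2 replicate 3. The cause of these changes was not tested.

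Of all genes, 710 were higher and 399 lower with limma-voom, 722 and 887 without a filter, 234 and 104 with the covariate, and 275 and 85 at an adjusted p under 0.01, and 721 were lower with DESeq2. With 1 library left out, 268 to 591 were higher and 96 to 428 lower.

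For secreted and membrane-bound partners, 3 to 7 were higher and 0 to 1 lower with 1 library left out, and 1 was lower with DESeq2, limma-voom, library sizes alone or a mean of at least 5 CPM, and 2 without a filter. For scaffolds, 0 to 1 were higher and 0 to 1 lower with 1 library left out, 3 were higher with DESeq2 or without a filter, 2 with limma-voom and 0 at an adjusted p under 0.01, and 0 were lower with the covariate, the replicate block or an adjusted p under 0.01. For other adhesion genes, 4 to 9 were higher and 0 to 2 lower with 1 library left out, 4 were higher with the covariate and 5 at an adjusted p under 0.01, and 3 were lower with DESeq2 or without a filter, 2 with library sizes alone, upper-quartile factors or a mean of at least 5 CPM, and 1 with limma-voom.

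Some uncalled log2 fold changes changed sign. With the covariate, those of Flrt2, Lrfn1, Ptprd, Cadm2, Tenm1, Tenm2, Tenm3 and Clstn3 did. Among the uncalled genes given in full, signs changed for Adgrl1 with library sizes alone (-0.008), Lrfn1 with the covariate (-0.0847) and without GDX replicates 1 and 4 (-0.0715), Tenm2 with the covariate (0.0722), Tenm4 with library sizes alone (-0.0179) and with 1 library left out (-0.025 to 0.13), and Cadm4 with 1 library left out (-0.0434 to 0.0279).

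Same-numbered E2 and GDX libraries had correlations of their deviations from the group means of -0.02, -0.04 and -0.06. Taken over all genes tested, these would miss a pairing that affects few genes, so they cannot settle whether the numbers pair the pools. With the replicate block 421 genes were higher and 191 lower, and 4 of the 43 genes were higher and 3 lower, Lrrtm4 being lost.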
